A study of Mus musculus with 54 samples.

Results

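The genes described here serve protein folding in the endoplasmic reticulum (ER), and were chosen by symbol: Hspa5, Hsp90b1, Calr, Canx, Pdia4, Pdia6, Dnajb9, Xbp1, Sdf2l1 and Creld2. The 10 genes stood among 26264 symbols in the fibroblast table and 32534 to 35003 symbols in the lung tables. Each was listed once in every table and passed the filter on low values there (TPM no lower than 1 in 3 or more libraries). TPM (transcripts per unit of library, scaled for gene length and summing to a fixed total) lets levels of different genes be compared.

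Secreted and membrane proteins fold in the ER, where chaperones hold unfolded chains, lectins hold glycoproteins and disulfide isomerases join cysteines. When unfolded protein builds up, the sensors IRE1, PERK and ATF6 start the unfolded protein response, and XBP1 and ATF6 switch on the folding genes. PERK acts through ATF4, a factor that amino acid shortage also raises through another kinase, and collagen-secreting fibroblasts are known for a heavy folding load.

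Poly(A) RNA of 54 mouse libraries in 17 groups had been sequenced. The 24 fibroblast libraries, in 8 groups of 3, came from primary wild-type lung fibroblasts of mice 6 to 8 weeks old, grown with 10% serum. Cells spent 24 h in medium free of the branched-chain amino acids leucine, isoleucine and valine (BCAA), in free medium with BCAA returned, in free medium with their keto acids (BCKA) returned, or in complete medium. In each medium, cells then received TGF-β1 at 20 ng/mL for 48 h, a cytokine that drives fibroblasts to become contractile and secrete collagen, or PBS.

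The 30 lung libraries came from male C57BL/6 mice 10 to 12 weeks old. In the water experiment (3 libraries a group) bleomycin, a drug that injures the lung, was given into the airway at 1.25 mg/kg after 7 days on drinking water with 3 mM BCAA or without it, or PBS was given, and lungs were taken on day 14. In the diet experiment (4 libraries a group) bleomycin at 1.25 mg/kg was followed from day 7 by a BCAA-free or a normal diet for 14 days, beside PBS lungs, and lungs were taken on day 21. In the BT2 experiment (3 libraries a group) bleomycin at 3.5 mg/kg was followed from day 3 by 11 days of injections of BT2 at 20 mg/kg or of 10% DMSO, beside PBS lungs labelled PBS_DMSO, and lungs were taken on day 14. BT2 inhibits the kinase that switches off BCKA oxidation.

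Only TPM are used here, so the depth of each library is unknown. The labels do not say whether the fibroblast libraries of a group came from separate cultures, or how many mice stand behind a lung library, so p-values measure only the spread between these libraries, which may be technical. Fibroblast markers were high in all 24 cultures, and Ptprc, Epcam and Scgb1a1 averaged under 1 TPM in every culture group. Other markers of non-fibroblast cells were present. The leukocyte and macrophage markers summed to 445 to 1181 TPM in cultures, with 2 to 4 of them above 1 TPM. Alveolar type 1 markers summed to 77.3 to 269 TPM in cultures, and alveolar type 2 markers to 71.2 to 137 TPM. Summed per culture, club cell markers reached at most 30.7 TPM, epithelial markers 4.50 TPM and plasma cell markers 84.3 TPM. A library with TGF-β1 in BCAA-free medium, replicate 1, stood apart from the other 2 of its group, with a mean rank correlation of 0.954 to them and a Col1a1 level of 27677 TPM, the group's lowest being 4495 TPM. Replicate 3 of the BCAA-free diet lungs listed 17554 genes above 0, against 24329 to 25632 in the other 3 libraries of its group, and its mean rank correlation to them was 0.882. The PBS lungs of the diet experiment also stood apart from the PBS lungs of the other experiments. Their summed endothelial markers were 178 to 299 TPM, against 1150 to 2577 TPM in the other PBS lungs, and their summed alveolar type 1 markers were 729 to 1205 TPM, against 4028 to 4687 TPM. The RNA protocol in the labels names heart tissue, while all 30 tissue libraries are labelled lung and held surfactant and club cell transcripts at high levels.

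The upstream sequences of 4 members whose levels parted when TGF-β1 was given without BCAA are shown first: Hspa5 and Canx, which were higher there than in complete medium, and Calr and Pdia6, which were lower. Each is the 250 bases before the annotated start, 5′ to 3′ on the gene's strand, from RefSeq on build GRCm38.p6, with motif matches in capitals. They lie at chr2:34771840-34772089 (forward strand), chr11:50325674-50325923 (reverse strand), chr8:84846932-84847181 (reverse strand) and chr12:17266339-17266588 (forward strand).
Hspa5: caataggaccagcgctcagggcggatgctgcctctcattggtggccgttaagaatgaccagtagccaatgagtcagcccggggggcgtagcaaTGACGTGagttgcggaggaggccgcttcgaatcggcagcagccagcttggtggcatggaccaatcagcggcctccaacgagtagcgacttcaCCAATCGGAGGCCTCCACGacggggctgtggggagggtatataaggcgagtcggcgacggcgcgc
Canx: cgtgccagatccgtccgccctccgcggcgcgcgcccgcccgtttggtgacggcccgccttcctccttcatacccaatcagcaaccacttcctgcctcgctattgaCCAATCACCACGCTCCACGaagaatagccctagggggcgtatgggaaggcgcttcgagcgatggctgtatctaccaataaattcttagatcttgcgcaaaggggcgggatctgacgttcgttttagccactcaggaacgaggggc
Calr: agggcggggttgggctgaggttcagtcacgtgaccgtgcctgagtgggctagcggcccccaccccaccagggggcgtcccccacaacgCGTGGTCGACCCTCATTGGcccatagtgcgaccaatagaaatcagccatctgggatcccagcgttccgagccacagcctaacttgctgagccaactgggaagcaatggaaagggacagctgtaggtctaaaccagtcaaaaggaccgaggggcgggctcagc
Pdia6: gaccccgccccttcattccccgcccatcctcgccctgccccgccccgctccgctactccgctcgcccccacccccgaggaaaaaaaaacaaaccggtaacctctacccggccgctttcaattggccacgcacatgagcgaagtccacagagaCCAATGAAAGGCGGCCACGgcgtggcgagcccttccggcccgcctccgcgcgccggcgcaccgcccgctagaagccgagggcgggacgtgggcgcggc
The long match is the ER stress element, CCAAT and CCACG with 9 bases of any kind between them, a sequence through which ATF6 and XBP1 are known to act, and the short match in Hspa5 is TGACGTG, the core of the unfolded protein response element. Both strands were searched, and no matches overlapped. Hspa5, Canx and Pdia6 hold the long motif on their own strand, at bases -65 to -47, -145 to -127 and -98 to -80 from the start, and Calr holds it reversed at -162 to -144. All 10 members had a sequence, and 6 hold the long motif, Hsp90b1 and Creld2 being the others, against 37 of 32851 promoters of this length (0.113%). TGACGTG was found in Hspa5 alone among the members and in 1.65% of all promoters. The second form of the stress element, ATTGG and CCACG with 1 base between them (0.0304% of all promoters), and the ATF4-type element TGATGNAA (3.45%) were in no member's window, which says nothing about the factors. The element was thus present upstream of some members that rose and of some that fell. Sdf2l1, which was also lower than in complete medium when TGF-β1 was given without BCAA, held no match in its window.

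TGF-β1 in complete medium lowered most of these genes. Of the 10 members 7 fell and none rose (limma, adjusted p under 0.05 over 13084 genes), where 48.6% of all genes passed, 36.4% lower and 12.2% higher. The members' median difference was -0.48 on the log2(TPM + 1) scale, on which all differences below are given, and the median of all genes was -0.20. With each library centred on its own median, 6 members fell and Canx rose by 0.27, while 23.0% of all genes fell and 21.3% rose. In RNA from bulk samples, fewer cells of a type and less RNA per cell cannot be told apart.

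Hspa5 encodes BiP, the main Hsp70 chaperone of the ER, which also holds the stress sensors inactive. It stood at 623, 755 and 596 TPM with TGF-β1 in complete medium and at 1027, 1042 and 1101 TPM with PBS. The groups did not overlap, and the difference was -0.69 (SE 0.11, adjusted p = 2.91e-05, limma). Dnajb9 encodes a J-domain partner of BiP that holds IRE1 in check, and was the member with the largest fall, at 31.6, 36.6 and 30.3 TPM with TGF-β1 and 63.6, 59.9 and 66.8 TPM with PBS (difference -0.93, SE 0.18, adjusted p = 0.000156, limma). Calr, the soluble lectin chaperone calreticulin, averaged 1149 ± 121 TPM with TGF-β1 and 1626 ± 11.9 TPM with PBS (SD, n = 3 each; difference -0.51, adjusted p = 0.00138, limma). The disulfide isomerases Pdia4 and Pdia6 differed by -0.45 and -0.53, and Xbp1 and Sdf2l1, a partner of BiP, by -0.48 each, all with separate ranges. After centring Sdf2l1 missed the threshold (-0.29, adjusted p = 0.0676, limma).

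Canx, the membrane-bound lectin calnexin, Hsp90b1, the ER form of Hsp90, and Creld2, a resident protein known to be induced by ER stress, did not pass in complete medium. Canx averaged 520.4 ± 22.2 TPM with TGF-β1 and 495 ± 27.0 TPM with PBS (SD, n = 3 each). Hsp90b1 averaged 1037 ± 128 TPM with TGF-β1 and 1166 ± 45.4 TPM with PBS, and Creld2 41.3 ± 9.98 TPM with TGF-β1 and 42.2 ± 0.908 TPM with PBS. In each of the 3 the libraries of the groups overlapped. Replicate 2 with TGF-β1 was the highest of its group in all 10 members, and without it Hsp90b1 also fell, by 0.28 (adjusted p = 0.0256, limma).

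**Figure D1:**
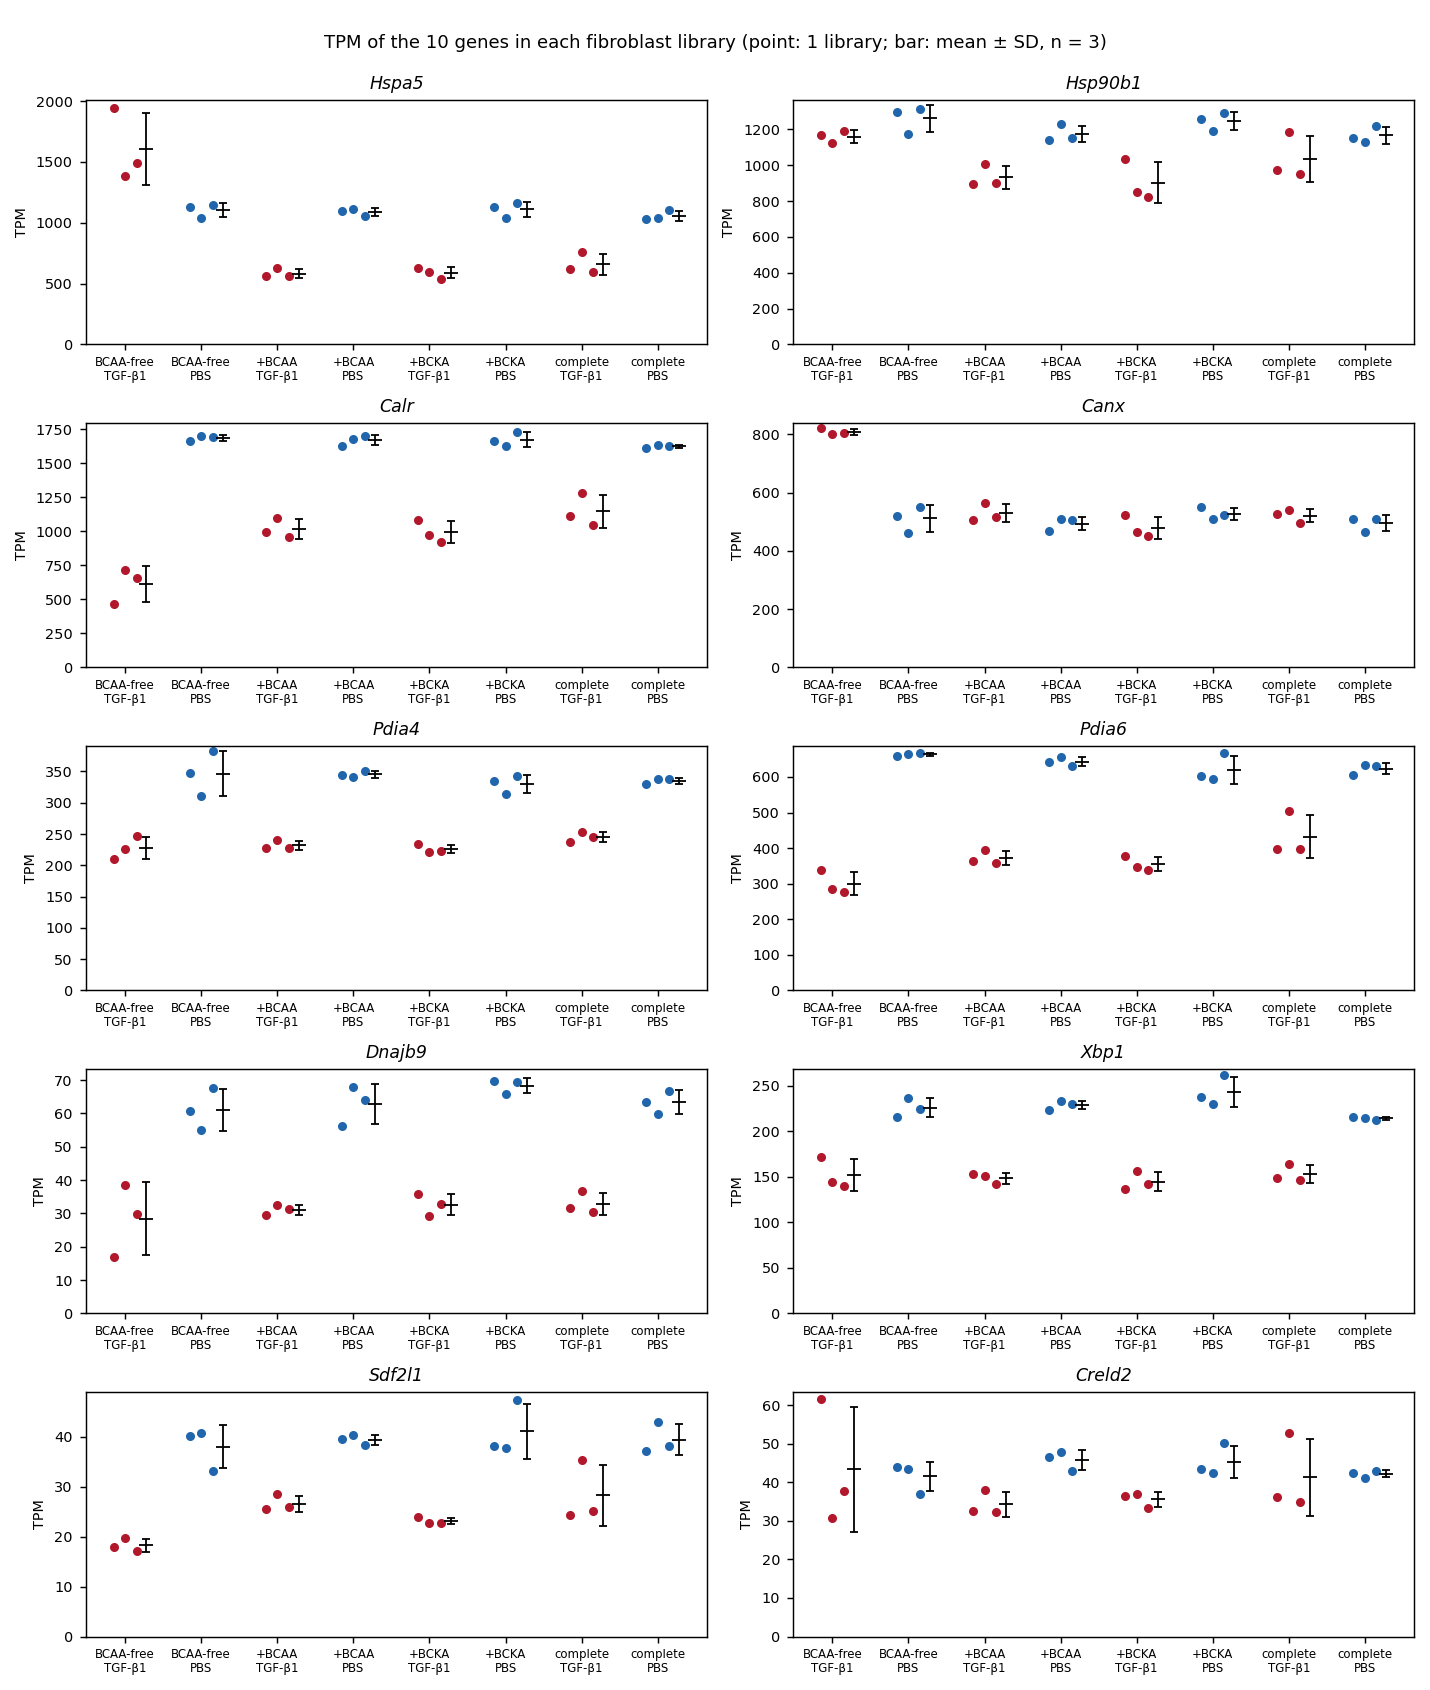
TPM of the 10 genes in each of the 24 fibroblast libraries, by medium, with TGF-β1 (red) left of PBS (blue); points are libraries and bars the mean ± SD of 3. Hspa5 with TGF-β1 lies at 1382 to 1939 TPM in BCAA-free medium and at 539 to 755 TPM in the other 3 media, while Calr in BCAA-free medium with TGF-β1 lies lowest of all groups.

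With BCAA or BCKA returned to the free medium, TGF-β1 lowered 8 members in each, Hsp90b1 being the addition. None rose. Of all genes 44.8% passed with BCAA returned (33.2% lower and 11.5% higher) and 45.8% with BCKA returned (34.3% lower and 11.5% higher). Hspa5 was at 558, 628 and 559 TPM with TGF-β1 and BCAA returned, against 1094, 1115 and 1052 TPM with PBS and BCAA returned (difference -0.90, SE 0.11, adjusted p = 9.02e-07, limma). It was at 625, 598 and 539 TPM with TGF-β1 and BCKA returned, against 1129, 1037 and 1161 TPM with PBS and BCKA returned (difference -0.92, SE 0.11, adjusted p = 7.15e-07, limma). In both media the TGF-β1 libraries lay wholly under the PBS libraries. Canx and Creld2 passed in neither, with differences of 0.10 and -0.14 for Canx and of -0.41 and -0.33 for Creld2. Under centring the fall of Hsp90b1 with BCAA returned missed the threshold (-0.16, adjusted p = 0.259, limma) and Canx rose there by 0.27.

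Without BCAA some members rose and more fell with TGF-β1, while genes at large were nearer an even split. TGF-β1 in BCAA-free medium raised Hspa5 and Canx and lowered Calr, Pdia4, Pdia6, Dnajb9, Xbp1 and Sdf2l1, so that 8 of 10 passed, where 64.1% of all genes did, 29.2% higher and 34.9% lower. The median over members was -0.59 and over all genes -0.06. Hspa5 was at 1939, 1382 and 1492 TPM with TGF-β1, against 1131, 1042 and 1141 TPM with PBS in the same medium (difference 0.52, SE 0.11, adjusted p = 0.000361, limma). Canx was at 820.2, 799 and 803 TPM with TGF-β1, against 520.2, 462 and 552 TPM with PBS (difference 0.66, SE 0.08, adjusted p = 5.57e-07, limma). For both genes every TGF-β1 library was above every PBS library. Calr was at 467, 719 and 655 TPM with TGF-β1, against 1665, 1703 and 1694 TPM with PBS, a fold of 0.358 (difference -1.48, SE 0.12, adjusted p = 3.84e-10, limma). Pdia6 was at 338, 287 and 277 TPM with TGF-β1, against 659, 664 and 667 TPM with PBS (difference -1.15, SE 0.09, adjusted p = 5.77e-10, limma). Here too the groups were far apart, in the opposite direction. Dnajb9 and Sdf2l1 fell by 1.15 and 1.01, and Pdia4 and Xbp1 by 0.60 and 0.57. Without replicate 1 of the TGF-β1 group the same 8 members passed, with 0.38 for Hspa5, 0.65 for Canx and -1.30 for Calr.

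Set directly against TGF-β1 in complete medium, TGF-β1 in BCAA-free medium left 5 members different, 2 higher and 3 lower. Of all genes 60.3% passed, 35.5% higher and 24.8% lower, so the members passed no more often than genes at large. Hspa5 averaged 1604 ± 295 TPM in free medium and 658 ± 85.1 TPM in complete medium (SD, n = 3 each), a difference of 1.28 (SE 0.11, adjusted p = 2.59e-09, limma). Canx averaged 808 ± 11.1 TPM in free medium and 520.4 ± 22.2 TPM in complete medium, a difference of 0.63 (SE 0.08, adjusted p = 1.28e-06, limma). Calr averaged 614 ± 131 TPM in free medium and 1149 ± 121 TPM in complete medium, a difference of -0.92 (SE 0.12, adjusted p = 8.53e-07, limma). Canx and Calr are the lectin pair, which bind the same sugar tags, and their libraries did not overlap between media in either gene. Pdia6 was lower by 0.52 (adjusted p = 6.55e-05, limma). Sdf2l1, at 17.9, 19.7 and 17.1 TPM in free medium and 24.3, 35.3 and 25.2 TPM in complete medium, was lower by 0.59 (adjusted p = 0.000329, limma). All 5 passed in each of 14 alternative settings run, among them the fit without replicate 1 of the free group, where Hspa5 differed by 1.13, Canx by 0.62 and Calr by -0.74. Hsp90b1, Pdia4, Dnajb9, Xbp1 and Creld2 did not pass, their 95% intervals lying between -0.63 and 0.40. Hsp90b1 passed without replicate 2 of the complete group (0.27, adjusted p = 0.0220, limma), and Dnajb9 without replicate 2 of the free group (-0.52, adjusted p = 0.00659, limma) and after centring (-0.38, adjusted p = 0.0275, limma). Xbp1, the factor that drives many of these genes, averaged 152 ± 17.5 TPM in free and 153 ± 9.81 TPM in complete medium. The fibroblast markers, collagens among them, summed to 13043 to 58254 TPM in free medium and 41391 to 45298 TPM in complete medium with TGF-β1, and their part was not tested. Relative to the median of all genes, which was 0.10 higher in free medium, Pdia4 (-0.22, adjusted p = 0.0216, limma) and Dnajb9 (-0.38, adjusted p = 0.0275, limma) were also lower.

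The responses to TGF-β1 themselves differed between BCAA-free and complete medium in the same 5 genes, by the interaction of medium and TGF-β1. Of all genes 47.6% passed, near the share among the members, with 29.2% higher and 18.4% lower. The response was higher in free medium by 1.21 for Hspa5 (SE 0.16, adjusted p = 2.21e-06, limma) and by 0.59 for Canx (adjusted p = 0.000366, limma). It was lower by 0.98 for Calr (adjusted p = 6.69e-05, limma), by 0.61 for Pdia6 (adjusted p = 0.000755, limma) and by 0.53 for Sdf2l1 (adjusted p = 0.0163, limma). Hspa5 thus rose with TGF-β1 in free medium and fell with it in complete medium. The call of Sdf2l1 was lost without replicate 2 with TGF-β1 in complete medium (-0.37, adjusted p = 0.0530, limma) and when only the 4 groups were fitted (adjusted p = 0.0769, limma).

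**Figure D2:**
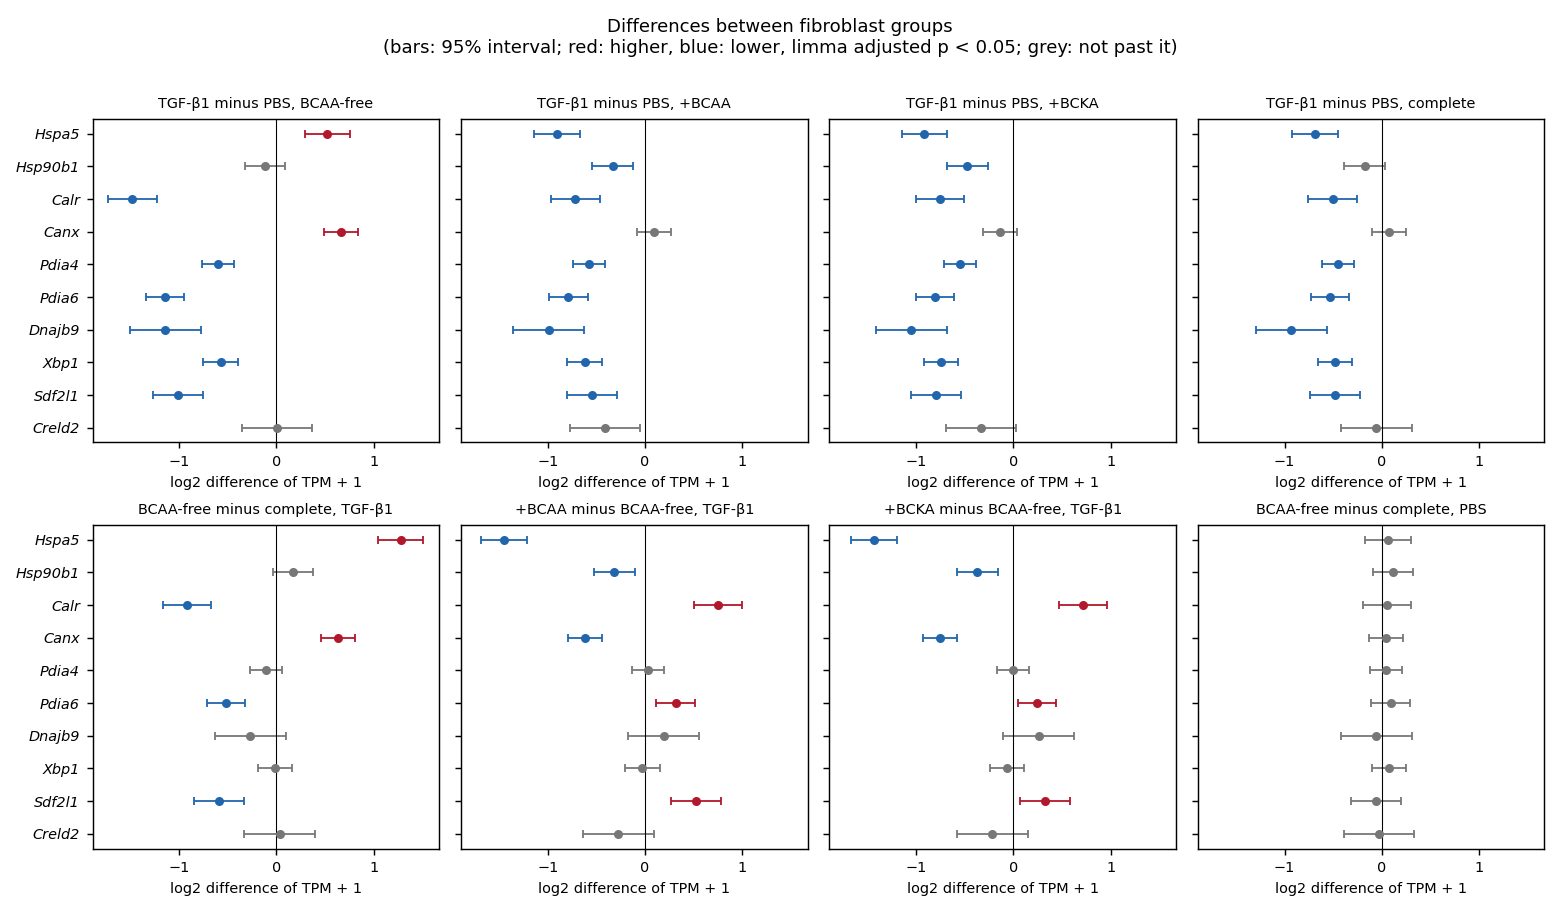
Log2 differences of TPM + 1 with 95% intervals for the 10 genes in 8 comparisons of fibroblast groups; colour marks limma adjusted p under 0.05. In the panels of BCAA-free medium Hspa5 and Canx lie right of 0 and Calr, Pdia6 and Sdf2l1 left of it, and in the PBS panel all 10 intervals hold 0.

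BCAA removal without TGF-β1 was compared next. None of the 10 passed between BCAA-free and complete medium with PBS by limma, none had an unadjusted p under 0.05, and 0.910% of all genes passed. Differences lay between -0.06 and 0.11, and the 95% intervals between -0.42 and 0.34. Hspa5 averaged 1105 ± 54.6 TPM in free medium and 1057 ± 38.9 TPM in complete medium (SD, n = 3 each), and Calr 1688 ± 20.1 TPM in free and 1626 ± 11.9 TPM in complete medium. Neither BCAA nor BCKA return moved a member past the threshold without TGF-β1, where 0.260% and 0.665% of all genes passed, and again no member had an unadjusted p under 0.05.

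Return of BCAA or of BCKA under TGF-β1 turned the split round. Against TGF-β1 in free medium, 3 members rose and 3 fell with either addition, and these comparisons share the free group. Of all genes 58.3% passed for BCAA (25.0% higher and 33.3% lower) and 58.4% for BCKA (25.1% higher and 33.4% lower). Hspa5 was lower by 1.45 with BCAA and by 1.44 with BCKA (SE 0.11 each, adjusted p = 3.60e-10 and 4.33e-10, limma), and Canx by 0.61 and 0.75. Calr was higher by 0.75 with BCAA and by 0.72 with BCKA (adjusted p = 1.36e-05 and 2.59e-05, limma). Hsp90b1 was lower by 0.31 and 0.37, Pdia6 higher by 0.31 and 0.24, and Sdf2l1 higher by 0.52 and 0.33. With BCAA, the calls of Hsp90b1 and Pdia6 were lost when only the compared groups were fitted, and that of Hsp90b1 after centring. With BCKA, the calls of Hsp90b1, Pdia6 and Sdf2l1 were lost when only the compared groups were fitted. Those of Pdia6 and Sdf2l1 were also lost without single libraries of either group, at lowest 0.19 and 0.29. Without replicate 2 of the free group, Dnajb9 rose by 0.44 with the amino acids and 0.51 with the keto acids (adjusted p = 0.0187 and 0.00774, limma). Creld2 then fell by 0.49 and by 0.43 (adjusted p = 0.0156 and 0.0315, limma). Hspa5, Canx and Calr passed in all 14 settings with either addition.

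The keto acids were then set against the amino acids under TGF-β1. None of the 10 members passed between BCKA and BCAA by limma, none had an unadjusted p under 0.05, and 0.268% of all genes passed. Their 95% intervals lay between -0.45 and 0.43, and that of Hspa5 between -0.22 and 0.25. Against complete medium under TGF-β1, no member passed with BCAA returned (0.0153% of all genes) or with BCKA returned (0.611%). With BCKA all 10 estimates were below 0, between -0.28 and -0.01, and 2 had an unadjusted p under 0.05; with BCAA 1 had, Pdia6 in both cases and Sdf2l1 with BCKA.

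The ratio of Hspa5 to Calr, chosen after the values were seen, puts the split into a single number per library. It was 4.16, 1.92 and 2.28 with TGF-β1 in BCAA-free medium and 0.558 to 0.679 in the other 21 fibroblast libraries. Canx against Calr gave 1.76, 1.11 and 1.23 in those 3 libraries and 0.271 to 0.539 in the rest. Calr thus stood above Hspa5 and Canx in every culture but these 3. Replicate 1, which stood apart in its whole profile, had the highest ratio, and the other 2 were also outside the range of the rest.

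**Figure D3:**
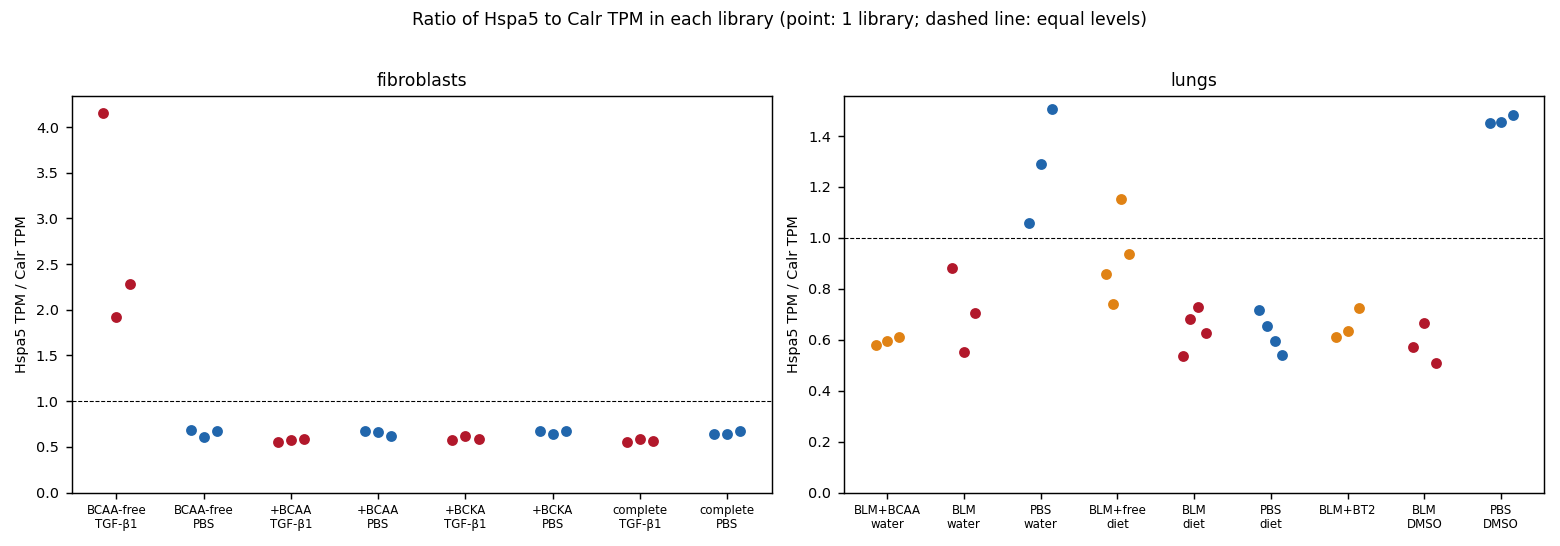
Ratio of Hspa5 TPM to Calr TPM in each fibroblast library (left) and each lung library (right), by group; the dashed line marks equal levels. The 3 libraries with TGF-β1 in BCAA-free medium lie at 1.92 to 4.16 and all other fibroblast libraries under 0.70, and the PBS lungs of the water and BT2 experiments lie above 1.

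Across the 8 fibroblast groups Calr moved with Sdf2l1 (r = 0.98), Pdia6 (r = 0.97) and Dnajb9 (r = 0.92), and hardly with Hspa5 (r = 0.03). These are 8 group means of 3 libraries that share media and TGF-β1. TGF-β1 in free medium was the highest group for Hspa5 and the lowest for Calr, while in the other media both genes fell with TGF-β1. Hsp90b1 was the member closest to Hspa5 (r = 0.86). The groups in falling order of Hspa5 were TGF-β1 in free medium, the 4 PBS groups, whose ranges overlapped with each other, and then the other 3 TGF-β1 groups, which also overlapped. Calr had the 4 PBS groups first, where each overlapped its neighbour in the order but PBS in free medium lay above PBS in complete medium without overlap, then TGF-β1 in complete, BCAA-returned and BCKA-returned media, and TGF-β1 in free medium last and apart. Among 4865 genes whose group means spanned at least 1 log2, the patterns most like that of Hspa5 over the 8 group means were those of Gatb, Crocc, Plscr1, Ubtf and Marcksl1 (r = 0.99 or more).

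The stress sensors and regulators, a list of 14 genes of the unfolded protein and ATF4 responses, were higher with TGF-β1 in BCAA-free medium, as Hspa5 was. Under TGF-β1, 12 of 14 were higher in BCAA-free than in complete medium and none lower, where 35.5% of all genes were higher, with a median of 1.07 beside 0.10 for all genes. Trib3, a pseudokinase induced by ATF4, averaged 240.3 ± 85.1 TPM in free medium and 20.0 ± 4.71 TPM in complete medium (SD, n = 3 each), a difference of 3.49 (adjusted p = 1.47e-11, limma). Ddit3, which encodes the factor CHOP, averaged 186 ± 68.0 TPM in free medium and 16.8 ± 5.64 TPM in complete medium, a difference of 3.37 (adjusted p = 2.73e-11, limma). The count was also 12 without replicate 1 and after centring. Without TGF-β1 none of the 14 passed between these media. With TGF-β1 against PBS in the other media, where Hspa5 fell, genes of the list passed in both directions. In complete medium 3 were higher and 3 lower, where 12.2% of all genes were higher and 36.4% lower. With BCAA returned 3 were higher and 3 lower, where 11.5% of all genes were higher and 33.2% lower. With BCKA returned 4 were higher and 1 lower, where 11.5% of all genes were higher and 34.3% lower.

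Most genes of translocation and export moved the other way in the same comparison. Of 22 genes of translocation and glycosylation 13 were lower and 1 higher in free medium, where 24.8% of all genes were lower (median -0.52), led by Ssr4 of the translocon-associated complex (-1.45, adjusted p = 7.85e-08, limma). Of 20 genes of collagen and cargo export 13 were lower and 1 higher (median -0.45), among them Serpinh1, the collagen chaperone, at 973 ± 193 TPM in free medium and 2385 ± 97.9 TPM in complete medium (difference -1.31, adjusted p = 1.04e-09, limma). Of 22 other folding genes 12 were lower and 5 higher, with Pdia5 lower by 1.17 and Hyou1, the large Hsp70-type partner of BiP, higher by 0.73. Of 15 genes of ER-associated degradation 5 were lower and 4 higher (median -0.01). These counts were near the shares of all genes, 24.8% lower and 35.5% higher. Erlec1 was lower by 1.28 and the extraction ATPase Vcp higher by 1.18. Without replicate 1, translocation had 13 lower and 4 higher and cargo export 10 lower and 2 higher. BCAA return gave 13 higher and 1 lower in each of the translocation and export lists, and 13 of 14 stress genes lower. Of all genes 25.0% were higher and 33.3% lower with BCAA return. In complete medium TGF-β1 itself raised Ero1a, the oxidase that recharges disulfide isomerases, by 1.59, and Kdelr3, which retrieves escaped ER residents, by 1.08, while 7 of the 10 folding members fell. There 4 of the 22 other folding genes rose and 3 fell, and 8 of the 20 cargo export genes rose and 3 fell. Of all genes 12.2% were higher and 36.4% lower.

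In lungs, 5, 3 and 5 of the 10 members passed between bleomycin and PBS in the water, BT2 and diet experiments. In the water experiment 5 rose and none fell, where 21.9% of all genes passed, 14.8% higher and 7.08% lower, and the median of members was 0.45 beside 0.09 for all genes. Sdf2l1 was at 70.8, 61.6 and 49.1 TPM in bleomycin lungs and 22.6, 15.3 and 17.7 TPM in PBS lungs (difference 1.66, SE 0.18, adjusted p = 0.000186, limma). Calr was at 773, 707 and 692 TPM in bleomycin lungs and 352, 370.0 and 343 TPM in PBS lungs (difference 1.02, SE 0.14, adjusted p = 0.000647, limma). Neither gene's groups came near each other. Pdia4 was higher by 1.12 (adjusted p = 0.00225, limma) and Pdia6 by 0.71 (adjusted p = 0.00404, limma), with separate ranges. These 4 passed in all 14 settings run. Hsp90b1 (0.49, adjusted p = 0.0405, limma) passed in 4 of 14. Hspa5 was at 683, 390.3 and 487 TPM in bleomycin lungs and 373, 478 and 517 TPM in PBS lungs, so that the groups overlapped (difference 0.16, adjusted p = 0.628, limma). Dnajb9 differed by -0.52 (adjusted p = 0.0695, limma), and passed after centring (-0.62, adjusted p = 0.0175, limma) and without bleomycin or PBS replicate 1.

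Cell markers moved with these rises. In the water experiment the 8 leukocyte and macrophage markers summed to 15988 to 21976 TPM in bleomycin lungs and 8671 to 11894 TPM in PBS lungs, and the 8 fibroblast markers to 1437 to 1942 TPM in bleomycin lungs and 518 to 714 TPM in PBS lungs. Plasma cell markers, of cells rich in ER, summed to 285 to 873 TPM in bleomycin lungs and 108 to 167 TPM in PBS lungs, with 9 of 10 above 1 TPM in every library of both groups. Club cell markers summed to 51346 to 111832 TPM in bleomycin lungs and 140733 to 251476 TPM in PBS lungs. Their part in the changes of the folding genes was not tested.

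In the BT2 experiment, with the higher bleomycin dose, Calr and Sdf2l1 rose and Dnajb9 fell in bleomycin lungs with DMSO, 3 of 10 where 30.6% of all genes passed, 17.3% higher and 13.3% lower. Dnajb9 was at 57.4, 118 and 51.0 TPM in bleomycin lungs and 167, 173 and 181 TPM in PBS lungs (difference -1.29, SE 0.27, adjusted p = 0.00668, limma). Calr was at 597, 908 and 609 TPM in bleomycin lungs and 420.0, 347 and 437 TPM in PBS lungs (difference 0.79, adjusted p = 0.0278, limma). Sdf2l1 was at 55.8, 99.4 and 72.5 TPM in bleomycin lungs and 37.4, 18.3 and 33.7 TPM in PBS lungs (difference 1.34, adjusted p = 0.0175, limma). All 3 had separate ranges, and Dnajb9 passed in all 14 settings, Sdf2l1 in 13 and Calr in 9. Without PBS replicate 2 only Dnajb9 remained past the threshold, and without bleomycin replicate 2 Hspa5 was lower by 0.84 (adjusted p = 0.0173, limma). Alveolar type 2 markers summed to 2366 to 15829 TPM in these bleomycin lungs and 47279 to 60238 TPM in the PBS lungs, and club cell markers to 11658 to 29985 TPM in bleomycin lungs and 107053 to 153563 TPM in PBS lungs. Fibroblast markers summed to 3519 to 3993 TPM in bleomycin lungs and 723 to 796 TPM in PBS lungs, and leukocyte and macrophage markers to 26852 to 29994 TPM in bleomycin lungs and 8887 to 10299.8 TPM in PBS lungs. Plasma cell sums overlapped, at 120 to 635 TPM in bleomycin lungs and 196 to 390.0 TPM in PBS lungs. Their part was not tested.

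In the diet experiment, at day 21, bleomycin raised Canx, Dnajb9 and Xbp1 and lowered Pdia6 and Sdf2l1, 5 of 10 where 60.9% of all genes passed, 48.7% higher and 12.3% lower. Xbp1 was at 283, 279, 283 and 319.7 TPM in bleomycin lungs and 126, 115, 144 and 94.4 TPM in PBS lungs (difference 1.29, SE 0.13, adjusted p = 4.24e-06, limma). Pdia6 was at 176, 180.3, 187 and 191 TPM in bleomycin lungs and 315, 301, 346 and 207 TPM in PBS lungs (difference -0.64, SE 0.18, adjusted p = 0.00907, limma). The ranges of both genes were apart, in opposite directions, and both passed in all 16 settings. Canx rose by 0.68 (adjusted p = 0.00502, limma), and passed in 15 settings. The calls of Dnajb9 (0.61, adjusted p = 0.0401, limma) and Sdf2l1 (-0.79, adjusted p = 0.0347, limma) held in 8 of 16 each, and Creld2 (-0.62) passed in 5 of 16. The median of all genes was 0.56 higher in bleomycin lungs. Relative to it, Xbp1 rose by 0.73 and 7 members fell, Hspa5 by 0.73, Hsp90b1 by 0.75, Calr by 0.77, Pdia4 by 0.68, Pdia6 by 1.21, Sdf2l1 by 1.35 and Creld2 by 1.19, while Canx and Dnajb9 did not pass; after centring 24.3% of all genes rose and 25.3% fell. The bleomycin lungs had leukocyte sums of 16418 to 24300 TPM, against 1262 to 1923 TPM in the PBS lungs, and club cell sums of 25046 to 30364 TPM, against 125014 to 292815 TPM in the PBS lungs, which also had the low endothelial and type 1 sums given above. Fibroblast markers summed to 3164 to 3946 TPM in bleomycin lungs and 356 to 502 TPM in PBS lungs, and cardiac muscle markers to 42.4 to 83.6 TPM in bleomycin lungs and 803 to 1766 TPM in PBS lungs. Plasma cell markers summed to 483 to 1370 TPM in bleomycin lungs and 111 to 209 TPM in PBS lungs. Mitochondrial transcripts held 4.41 to 5.29% of the TPM of bleomycin lungs and 12.2 to 17.3% of that of PBS lungs. Their part in these differences was not tested.

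Calr and Sdf2l1 rose with bleomycin in the water and BT2 experiments, while in the diet experiment, with lungs taken 7 days later, Calr did not pass and Sdf2l1 fell. The bleomycin dose was the same in the diet and water experiments and higher in the BT2 experiment, and no test was made between experiments. Their levels in bleomycin lungs were near each other across experiments, 724 ± 43.2 TPM for Calr in the water, 605 ± 56.3 TPM in the diet and 705 ± 176 TPM in the BT2 experiment, while the PBS lungs stood at 355 ± 13.6, 714 ± 180.5 and 401 ± 47.6 TPM (SD, n = 3, 4 and 3). Sdf2l1 averaged 60.5 ± 10.9, 75.7 ± 24.5 and 75.9 ± 22.0 TPM in bleomycin lungs, and 18.5 ± 3.73, 134 ± 47.5 and 29.8 ± 10.1 TPM in PBS lungs. Between experiments the means of the PBS lungs were further apart than those of the bleomycin lungs. The tables were normalized separately, so these levels are set side by side only. The ratio of Hspa5 to Calr was 0.552 to 0.883 in bleomycin lungs and 1.06 to 1.51 in PBS lungs of the water experiment, and 0.507 to 0.664 in bleomycin lungs and 1.45 to 1.48 in PBS lungs of the BT2 experiment. In the diet experiment it was 0.536 to 0.728 in bleomycin lungs and 0.542 to 0.716 in PBS lungs, and there the ranges overlapped.

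**Figure D4:**
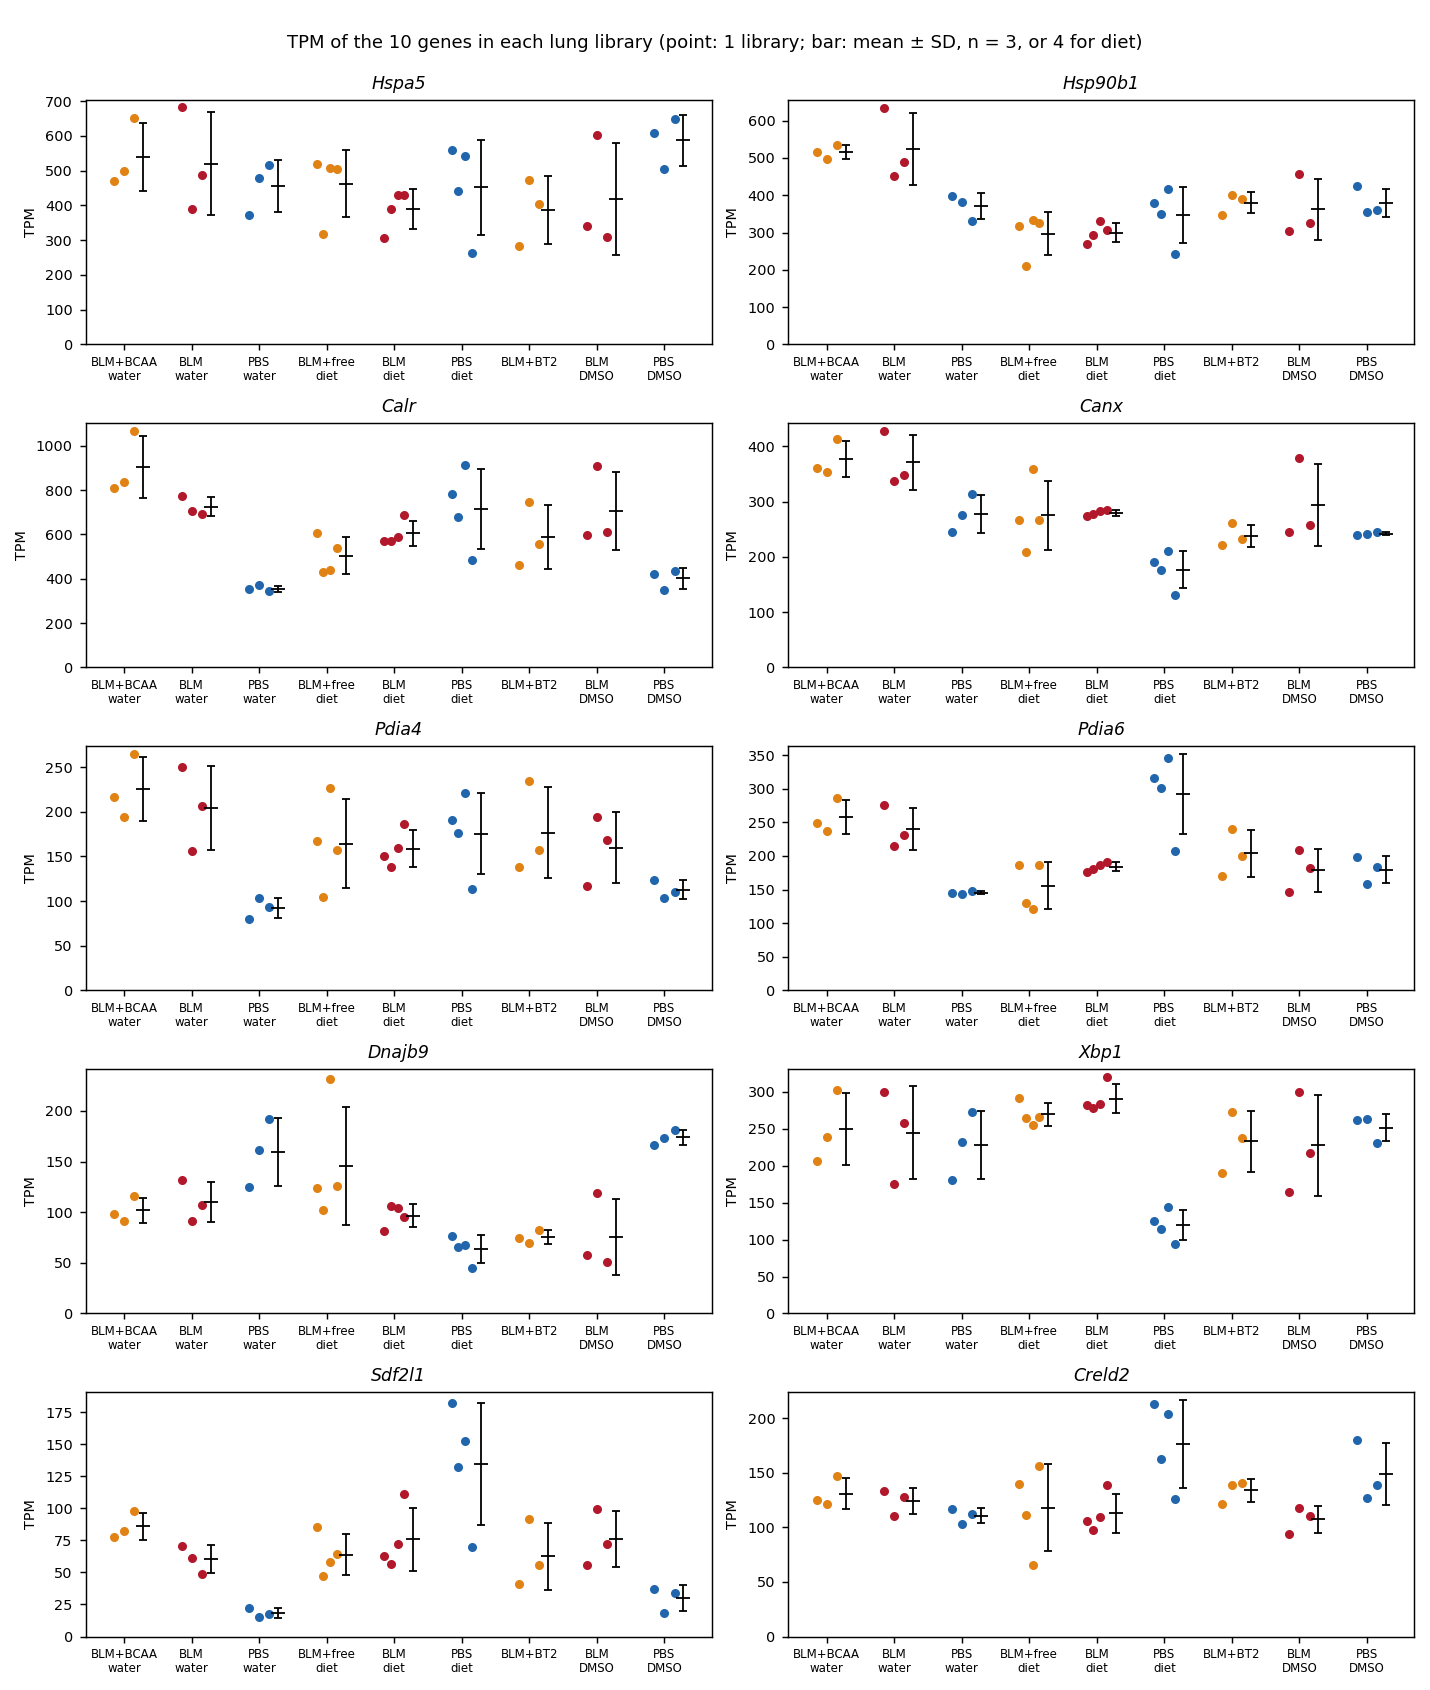
TPM of the 10 genes in each of the 30 lung libraries, with treated bleomycin (orange), bleomycin (red) and PBS (blue) lungs of each experiment; points are libraries and bars the mean ± SD. Sdf2l1 in PBS lungs lies at 15.3 to 37.4 TPM in the water and BT2 experiments and at 70.1 to 182 TPM in the diet experiment.

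None of the 3 treatments moved a member past the threshold in bleomycin lungs by limma. With BCAA in the water against plain water, 0 of 10 passed and 2 had an unadjusted p under 0.05, where 1.20% of all genes passed. Sdf2l1 was at 77.4, 82.4 and 97.8 TPM with BCAA and 70.8, 61.6 and 49.1 TPM with plain water (difference 0.51, interval 0.10 to 0.91, adjusted p = 0.198, limma), and Calr at 809, 835 and 1067 TPM with BCAA and 773, 707 and 692 TPM with plain water (difference 0.31, adjusted p = 0.295, limma). Their ranges were separate, but neither passed over all genes. How many of all genes had separate ranges was not counted.

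With the BCAA-free against the normal diet, 0 of 10 passed and 1 had an unadjusted p under 0.05, where 10.1% of all genes passed. That gene, Dnajb9, was at 124, 102, 232 and 126 TPM with the free diet and 81.1, 106, 104 and 94.8 TPM with the normal diet (difference 0.53, adjusted p = 0.190, limma). The value of 232 TPM was in the library that stood apart, and without it the difference was 0.28 (adjusted p = 0.318, limma). Hspa5 differed by 0.23 (interval -0.30 to 0.77) and Calr by -0.27 (interval -0.69 to 0.14), and their ratio was 0.742 to 1.15 with the free diet and 0.536 to 0.728 with the normal diet, without overlap. The ratio of 1.15 was in the library that stood apart, and the next highest was 0.938. This ratio, chosen after values were seen, was not tested. With BT2 against DMSO, 0 of 10 passed and none had an unadjusted p under 0.05, where 11.8% of all genes passed, and intervals lay between -1.09 and 0.70. Without DMSO replicate 2, the highest of its group for Dnajb9, that gene was higher with BT2 by 0.47 (adjusted p = 0.0258, limma).

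**Figure D5:**
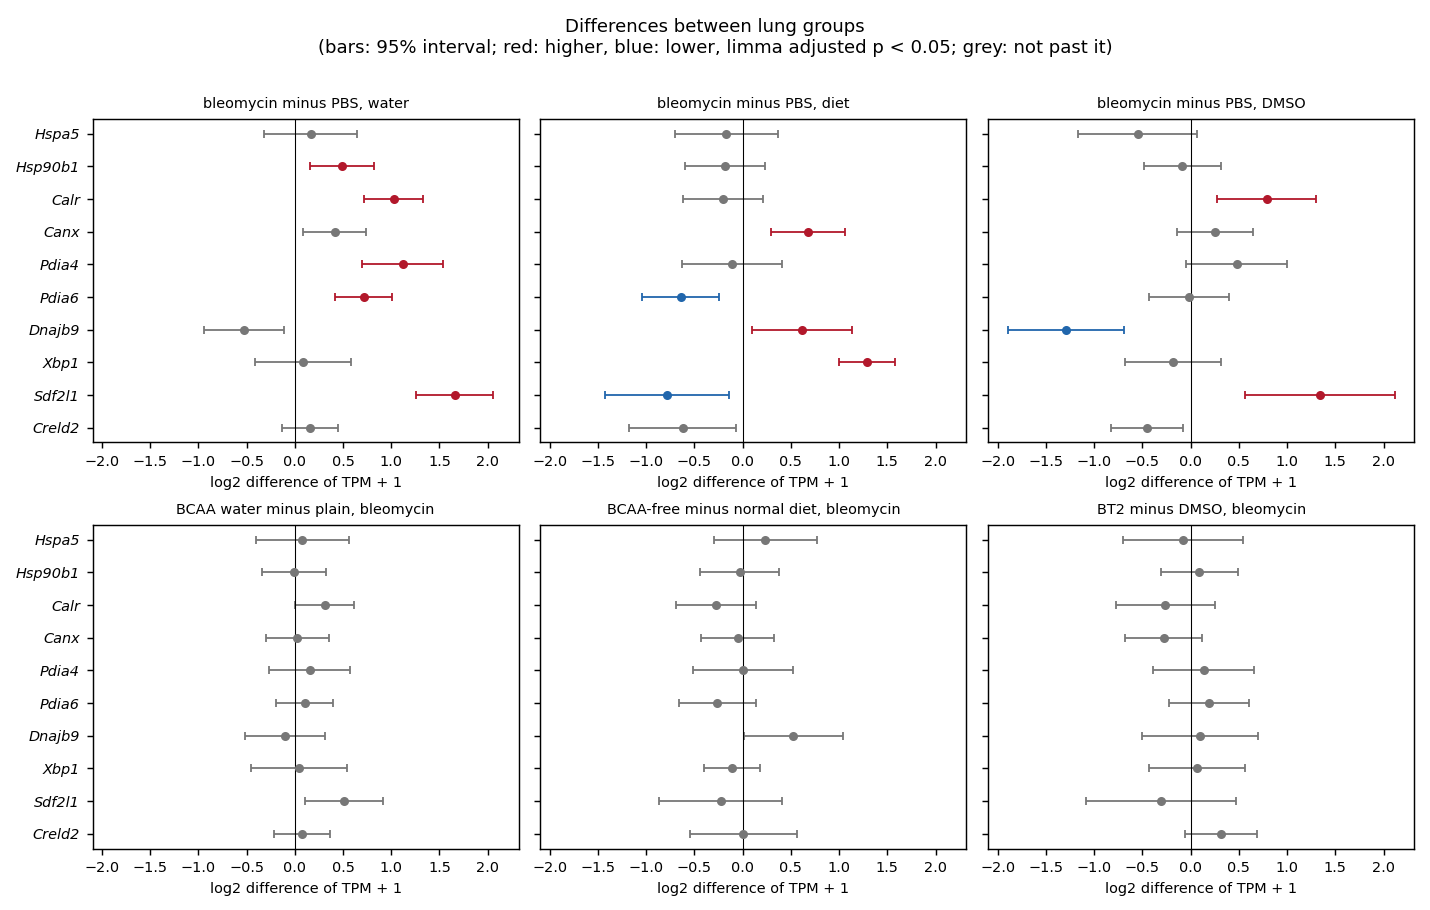
Log2 differences of TPM + 1 with 95% intervals for the 10 genes, for bleomycin against PBS (top) and each treatment against its bleomycin group (bottom); colour marks limma adjusted p under 0.05. The top panels hold 5, 5 and 3 coloured genes and the bottom panels none.

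Treated bleomycin lungs were also set against PBS lungs, which these comparisons share with those of bleomycin alone. With BCAA water 6 members rose and Dnajb9 fell (33.8% of all genes passed, 22.7% higher and 11.1% lower), led by Sdf2l1 at 2.16 (adjusted p = 1.49e-05, limma) and Calr at 1.33 (adjusted p = 5.66e-05, limma). Without PBS replicate 2, BCAA replicate 1 or BCAA replicate 2, 4 remained past the threshold, Calr, Pdia4, Pdia6 and Sdf2l1. With the BCAA-free diet 3 rose and 3 fell (54.8% of all genes, 42.3% higher and 12.5% lower), Xbp1 and Dnajb9 by 1.18 and 1.14 upward and Sdf2l1 by 1.01 downward, and the call of Calr (-0.48, adjusted p = 0.0495, limma) was lost in 11 of 16 settings. With BT2 Dnajb9 alone passed (5.30% of all genes, 4.13% higher and 1.17% lower), at 74.3, 69.7 and 82.7 TPM with BT2 and 167, 173 and 181 TPM with PBS (difference -1.19, adjusted p = 0.0344, limma), and this call was lost when any library was left out.

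Some genes of the other folding and translocation lists were also higher with bleomycin, but in the diet experiment centring left more of them lower than higher. Of 23 other folding genes 11 were higher and none lower in the water experiment, where 14.8% of all genes were higher, and 10 were higher and none lower in the BT2 experiment, where 17.3% were. In the diet experiment 11 were higher and 1 lower, where 48.7% of all genes were higher. Of 22 genes of translocation and glycosylation 7 were higher in the water, 11 in the BT2 and 9 in the diet experiment, with 1 lower in the diet experiment. After centring, the diet experiment had 3 other folding genes higher and 7 lower, and 2 translocation genes higher and 9 lower. Of all genes 24.3% were higher and 25.3% lower there after centring. Of 16 genes of ER-associated degradation 2 were higher and 1 lower in the water experiment, 3 and 2 in the BT2 experiment, and 8 and 2 in the diet experiment, the last turning to 4 higher and 6 lower after centring. Kdelr3 and Fkbp10 led the cargo export list, higher by 1.38 and 1.53 in the water, 2.30 and 2.41 in the BT2 and 2.14 and 3.14 in the diet experiment. No folding member rose in all 3 experiments.

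Some of these other genes also passed under the treatments. Fkbp10, a prolyl isomerase of collagen folding, averaged 102 ± 7.69 TPM with BCAA water and 52.3 ± 5.75 TPM with plain water (SD, n = 3 each; difference 0.95, adjusted p = 0.0156, limma). It averaged 48.1 ± 12.0 TPM with the BCAA-free diet and 146 ± 24.9 TPM with the normal diet (SD, n = 4 each; difference -1.60, adjusted p = 0.000724, limma), and 57.6 ± 21.6 TPM with BT2 and 147 ± 7.75 TPM with DMSO (difference -1.40, adjusted p = 0.0108, limma). Kdelr3 went the same way in all 3, by 0.83, -1.43 and -1.59. Of the 20 genes of cargo export 2 were higher with BCAA water, where 0.872% of all genes were, 3 were lower with the free diet, where 6.12% were, and 7 were lower with BT2, where 5.41% were. None passed in the other direction. The fibroblast markers moved with them, at 2638 to 3376 TPM with BCAA water and 1437 to 1942 TPM with plain water, at 1673 to 2769 TPM with the free diet and 3164 to 3946 TPM with the normal diet, and at 1127 to 2316 TPM with BT2 and 3519 to 3993 TPM with DMSO. Their part was not tested.

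In lungs some stress regulators were lower with bleomycin in the water and BT2 experiments. In the diet experiment none was lower, and the share that was higher lay near that of all genes. No test was made between experiments or against the cultures. In the water experiment 7 of 14 were lower and 1 higher in bleomycin than in PBS lungs, where 7.08% of all genes were lower, and in the BT2 experiment 4 were lower and none higher, where 13.3% were lower. Chac1, a glutathione-cleaving enzyme induced by ATF4, averaged 4.87 ± 1.41 TPM in bleomycin lungs and 68.2 ± 11.9 TPM in PBS lungs of the water experiment (SD, n = 3 each; difference -3.57, adjusted p = 4.47e-06, limma), and 5.33 ± 2.86 TPM in bleomycin lungs and 76.5 ± 20.5 TPM in PBS lungs of the BT2 experiment (difference -3.67, adjusted p = 0.000166, limma). With BT2 in place of DMSO, Chac1 was higher by 2.09 and Trib3 by 0.91. In the diet experiment 8 of 14 were higher and none lower in bleomycin lungs, where 48.7% of all genes were higher, and 4 were higher after centring, where 24.3% were. With the BCAA-free against the normal diet 1 of 14 was higher and none lower, where 4.02% of all genes were higher. That gene, Atf3, a transcription factor induced by stress, averaged 188 ± 70.1 TPM with the free diet and 50.9 ± 9.76 TPM with the normal diet (SD, n = 4 each; difference 1.80, adjusted p = 0.0124, limma). Over the 9 lung groups, each minus its PBS group, the genes most like Hspa5 among 11462 ranked were Gm12391, Slc5a3, Sbk3, Gm2058 and Gm13687 (r = 0.89 to 0.94 over 9 values, 3 of which are PBS groups at 0 by construction), and r was 0.53 for Dnajb9 and 0.01 for Calr.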

How the data were processed

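Polyadenylated RNA of mouse lung fibroblast cultures and lungs had been sequenced, and the authors deposited 4 tables of TPM, 1 for the cultures and 1 for each lung experiment. Per the submitters' processing notes, FastQC, Trim Galore, HISAT2, Subread featureCounts and DESeq2 were used with build mm39; the annotation and each tool's role are not given in the sources used here. TPM sums to a fixed total per library, so a rise of abundant genes lowers the shares of the rest, and depth is unknown.

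From the deposited TPM, log2(TPM + 1) was fitted with limma 3.58.1 (R 4.3.3), 1 mean per group within each table, trend-moderated variance and two-sided tests. Genes with TPM of 1 or more in at least 3 libraries were tested, and p-values were adjusted (Benjamini-Hochberg) over all of them with a threshold of 0.05. The step was tested on simulated data. In all 23 comparisons were made, the 3 lung experiments each within its own table. Each comparison was refitted with a pseudocount of 0.1 or 0.5, with the low-value filter dropped or raised to TPM 5, after centring each library on its median, on the compared groups alone, without the variance trend, with a replicate block, and without each library in turn; "settings" counts these.

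Centring assumes that the median gene does not move. Members of the 5 context lists were named by rule, the 2 largest changes up and down past the threshold. The members and lists were chosen with earlier results of these data known. Splicing of Xbp1 was not analysed here, since a gene-level TPM does not show it. Promoter sequences are of GRCm38.p6 and were used for letters only, while the tables are of mm39.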

Additional observations from a re-analysis of the deposited data

Results flagged for a closer look

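Of the 30 sets of 4 lung libraries tested for a lone value, 4 held a library whose gap to its nearest neighbour took up more of the group's range than Dixon's 95% limit allows, and chance flags about 1 in 20 groups. With the BCAA-free diet, replicate 2 was the lowest for Hspa5 (319 TPM, gap share 0.923) and for Hsp90b1 (211 TPM, gap share 0.866). With bleomycin and the normal diet, replicate 4 was the highest for Calr (688 TPM, gap share 0.832) and for Xbp1 (319.7 TPM, gap share 0.889).

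The responses to TGF-β1 differed between BCAA-free and complete medium, by the interaction test of limma, in 5 genes, where 47.6% of all genes passed. The log2 difference of responses, free minus complete, was 1.21 for Hspa5 and 0.59 for Canx, and -0.98 for Calr, -0.61 for Pdia6 and -0.53 for Sdf2l1. The values for Hspa5, Canx, Calr and Pdia6 passed in all 20 settings run, and that of Sdf2l1 in 18.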

How the results depend on the processing

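None of the 80 member values that passed changed sign under any alternative. Apart from fits that left out single libraries, given below, the number of members past the threshold moved by over 1.5 times in 5 cases. With BCKA returned against TGF-β1 in free medium it was 3 when only the compared groups were fitted, instead of 6. For BCAA water with bleomycin against PBS it was 4 without the filter, instead of 7. For bleomycin on the normal diet against PBS it was 3 without the filter and 8 after centring, instead of 5. For BT2 with bleomycin against PBS it was 0 without the filter, instead of 1. Leaving out single libraries gave 4 to 6 for BCAA water against PBS, 3 to 5 for bleomycin on the normal diet, 1 to 4 for bleomycin with DMSO, 0 to 1 for BT2 against DMSO, 0 for BT2 against PBS, and 4 to 7 for BCKA return; the cause was not tested. Fitting only the compared groups added Creld2 to the falls with BCAA (-0.41, adjusted p = 0.000116, limma) and BCKA returned (-0.33, adjusted p = 0.00597, limma).

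Whether same-numbered libraries are paired is unknown, and the main fit did not pair them. The correlations of their deviations ran from -0.486 to 0.535 in cultures and from -0.252 to 0.190 in lungs. With a replicate block the count was 4 instead of 5 for bleomycin in the water experiment, 6 instead of 7 for BCAA water against PBS, 4 instead of 5 for bleomycin on the normal diet and 5 instead of 6 for the BCAA-free diet against PBS, and it left the other counts as they were.

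Counts over all genes moved by more than 1.5 times in 12 of 23 comparisons. Over all alternatives, BT2 against DMSO gave 138 to 4989 genes (2133 as reported), BT2 against PBS 235 to 2612 (962), bleomycin with DMSO against PBS 3334 to 7099 (5550), BCAA water against plain water 14 to 591 (207) and the BCAA-free against the normal diet 908 to 2785 (1885). Among cultures, free against complete medium gave 38 to 149 with PBS (119) and 4795 to 8626 with TGF-β1 (7895). BCKA against BCAA gave 16 to 96 (35), BCAA or BCKA returned against complete medium 0 to 2 (2) and 3 to 84 (80), and their return with PBS 4 to 45 (34) and 44 to 103 (87). With no depth given, values near the filter carry unknown counting error.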
